A study of Mus musculus with 45 samples.

Results

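Collagen genes were described across 45 Trp53-null mammary tumours. The genes taken were all those whose only symbol in the platform annotation has the form of a collagen chain name, such as Col1a1, each read from its probe set with the highest mean. There were 42 of them among 18820 genes with a probe set of 1 symbol. Col7a1 and Col9a3 share their probe sets with other genes (Mir711 and Tcfl5) and were not analysed here. In every group, pieces of mammary tissue lacking Trp53, from BALB/c donors, had been grafted into wild-type BALB/c females, at the inguinal mammary fat pad. The hosts were 10 weeks old, and their own mammary epithelium had been taken out at 3 weeks of age. Only the hosts were exposed, 3 days before transplantation, to a sham procedure (18 tumours) or to silicon ions (Si) at 10 cGy (9 tumours), 30 cGy (10 tumours) or 80 cGy (8 tumours), which makes 27 Si tumours. Growth was followed for up to 600 days, tumours were taken at 1 cm3, and each was measured on its own single-colour array. The labels do not say which tumours came from different donors or hosts, so p-values measure only the spread between these tumours. Among the sample codes in the labels, 8 pairs (16 tumours) share all but the last letter. Whether a pair came from 1 host is not stated. The deviations from the group means had a median r of -0.01 over these pairs, with a highest of 0.69. Tests here take the 45 tumours as separate, and with the shared codes as a random block (estimated correlation 0.24) limma also called 0 collagens in each test. Trp53 has no probe set with a symbol of its own and was not analysed here.

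Collagens are the main structural proteins of the extracellular matrix. Their chains wind into triple helices, which dedicated enzymes hydroxylate, trim and cross-link. Fibrillar collagens form the fibres of connective tissue and are made largely by fibroblasts. Type IV collagen is the network of basement membranes beneath epithelia and around vessels, type VI forms beaded microfilaments, and the FACIT collagens sit on the surface of fibrils. In mammary tumours, fibrillar collagen is a major part of the stroma around the epithelial cells.

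All values are deposited log2 expression after RMA, which corrects background, normalizes by quantiles and summarizes probes. Array medians lay between 5.48 and 5.80. A level orders the tumours for 1 gene and does not order genes. A gene was tested where it lay above the median of the whole table, 5.67, in at least 8 tumours, as 12123 genes did. Of the 42 collagens, 29 passed: 9 of 11 fibrillar genes, 5 of 8 basement membrane genes, 4 of 6 type VI genes, 6 of 8 FACIT genes, 3 of 4 transmembrane genes, 2 of 3 short-chain genes and 0 of 2 others. The 13 that did not pass were Col11a2 and Col24a1 (fibrillar), Col4a3, Col4a4 and Col4a6 (basement membrane), Col6a4 and Col6a5 (type VI), Col19a1 and Col22a1 (FACIT), Col13a1 (transmembrane), Col8a2 (short-chain), Col26a1 and Col28a1. They were above that median in 0 to 5 tumours each. Nearest to the limit on the other side, Col6a6 was above it in 10 tumours and Col25a1 in 12. For 4 genes a second probe set could be compared with the one used. Over the 45 tumours the r between them was 0.86 for Col6a5, 0.70 for Col5a1, 0.59 for Col6a6 and 0.41 for Col20a1. The second probe sets of Col5a1 (above the table's median in 3 tumours), Col6a5 and Col6a6 (1 each) were dim. A low r with a dim probe set does not by itself show disagreement. The second probe set of Col20a1 was above the table's median in 22 tumours, with a mean of 5.66. It therefore met the limit of 8 tumours, and the r of 0.41 for Col20a1 is between probe sets that each met it.

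The labelled tissue was checked against marker genes. Epcam, an adhesion molecule of epithelial cells, was above the table's median in 44 of the 45 tumours, with a median of 10.97 and a range of 4.80 to 11.97. Krt18, a keratin of luminal epithelium, had a median of 11.80 and a range of 6.38 to 12.90. Of other epithelial genes, Cdh1 and Cldn4 were above the table's median in 44 tumours, Grhl2 and Prss8 in 37 and Ovol1 in 28. A list score below is a tumour's average deviation, in log2, from the 45-tumour mean of each measured gene of the list. The epithelium score (12 of 12 genes) had a median of 0.61 and ran from -3.92 to 1.52. It was low in sham replicates 10 (-3.41), 13 (-3.17) and 5 (-2.46), 30 cGy replicate 4 (-2.90) and 80 cGy replicates 3 (-2.80) and 8 (-1.97). Its lowest values were those of 10 cGy replicate 1 (-3.92) and sham replicate 16 (-3.55). These tumours also had endothelium scores (12 of 12 genes) of 2.96 and 2.94, and over the genes tested they were the most alike pair of all, with r = 0.978 against a median of 0.857 over pairs. Tested relations that rest on them are given with and without them. The untested r between collagens, among them those of Col4a5 and of Col15a1, are given only with them.

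Type I collagen, the main fibre of connective tissue, is built from the chains of Col1a1 and Col1a2. Col1a1 had a lowest, median and highest value of 8.94, 11.29 and 12.47 in sham tumours, 8.46, 11.14 and 12.57 at 10 cGy, 9.48, 11.23 and 12.77 at 30 cGy, and 10.07, 12.00 and 12.73 at 80 cGy. Col1a2 ran from 7.98 through a median of 10.82 to 12.02 in sham tumours, from 8.11 through 10.28 to 11.85 at 10 cGy, from 8.61 through 10.99 to 12.10 at 30 cGy, and from 9.28 through 11.16 to 12.20 at 80 cGy. The range over all tumours was 4.31 log2 units for Col1a1 and 4.22 for Col1a2, and every group overlapped every other. Col3a1, whose type III collagen shares fibrils with type I, ran from 7.01 through 9.53 to 11.58 in sham tumours, from 6.71 through 9.07 to 10.83 at 10 cGy, from 7.54 through 9.30 to 10.99 at 30 cGy, and from 8.08 through 10.17 to 11.10 at 80 cGy. For all 3 genes the lowest tumours were 10 cGy replicate 3 and sham replicate 8, and 80 cGy replicates 1 and 8, 30 cGy replicate 1 and sham replicate 7 were among the highest. In bulk RNA, fewer cells of a type and less RNA per cell cannot be told apart.

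Type V collagen regulates how fibrils start and how thick they grow. Col5a1 had a lowest, median and highest value of 5.61, 7.32 and 8.52 in sham tumours, 5.87, 6.85 and 8.42 at 10 cGy, 5.99, 7.16 and 8.27 at 30 cGy, and 6.12, 7.56 and 9.01 at 80 cGy. Col5a2 ran from 5.69 through a median of 7.44 to 8.94 in sham tumours, from 5.27 through 7.51 to 9.04 at 10 cGy, from 6.23 through 7.37 to 8.62 at 30 cGy, and from 5.97 through 7.77 to 9.49 at 80 cGy. Col5a3 lay between 5.09 and 8.41 over the 45 tumours (median 6.57). The lowest tumour was sham replicate 8 for Col5a1 and 10 cGy replicate 3 for the other two, the same tumours that were low in type I collagen. Col5a1 and Col5a2 were highest in 80 cGy replicate 1, and Col5a3 was highest in sham replicate 7. The fibrillar genes known from cartilage were highest in other tumours. Col2a1, the main collagen of cartilage, lay between 5.54 and 8.22 (median 5.98), with sham replicate 2 highest. Col11a1, a fibril-regulating chain of cartilage that some tumour stroma also makes, lay between 5.14 and 8.54 (median 6.42), with sham replicate 15 highest. Col27a1 lay between 5.23 and 7.98 (median 6.01), again with sham replicate 2 highest.

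**Figure D1:**
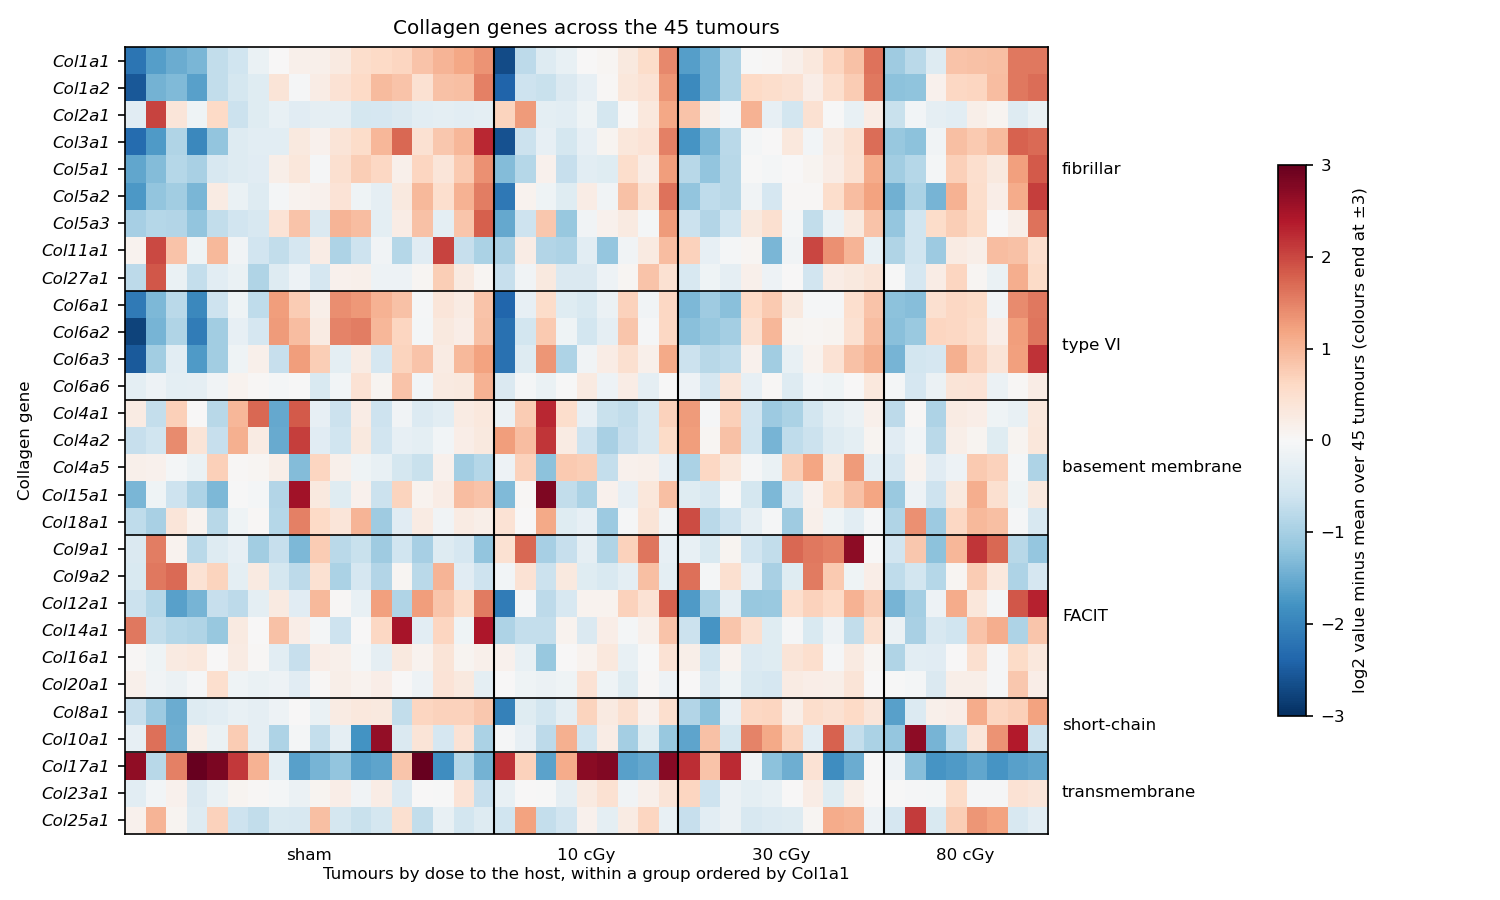
Log2 value minus the gene's mean over 45 tumours (colour, ending at 3 log2 units either way) for the 29 collagen genes that passed the filter (rows, by class) in each tumour (columns, by dose to the host and ordered within a group by Col1a1). Types I, III, V and VI go from low to high together within each of the 4 groups, while Col17a1 has an r below 0 with Col1a1 (-0.49).

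Type VI collagen links cells to the fibrillar matrix. Col6a1 had a lowest, median and highest value of 7.45, 9.80 and 10.98 in sham tumours, 7.20, 9.41 and 10.28 at 10 cGy, 8.25, 9.72 and 10.45 at 30 cGy, and 8.32, 10.12 and 11.16 at 80 cGy. Col6a2 ran from 6.61 through a median of 9.61 to 10.94 in sham tumours, from 7.15 through 9.26 to 10.23 at 10 cGy, from 8.14 through 9.48 to 10.39 at 30 cGy, and from 8.14 through 9.96 to 10.99 at 80 cGy. For Col6a3 these values were 6.88, 9.42 and 10.67 in sham tumours, 7.18, 9.57 and 10.73 at 10 cGy, 8.36, 9.35 and 10.48 at 30 cGy, and 8.02, 9.96 and 11.58 at 80 cGy. All 3 were lowest in sham replicate 8 and 10 cGy replicate 3 and highest in 80 cGy replicate 1, and the groups overlapped. Col6a6, a less studied type VI chain, stayed between 4.92 and 6.47.

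Over the 45 tumours the 10 genes of types I, III, V and VI that passed the filter had a median Pearson r of 0.83 between pairs. Of their 45 pairs, 42 were above 0.5, and the lowest was 0.45. Over all 406 pairs of collagens the median was 0.11, with 80 pairs above 0.5. Over all 73477503 pairs of the 12123 genes it was 0.014, with 1855063 pairs above 0.5. The set does not hold every fibrillar gene: over the 9 that passed the filter the median was 0.42, with 7 of 36 pairs below 0. Outside the set, Col12a1 and Col8a1 had r of 0.83 and 0.84 with Col1a1. With the means of the host groups removed, the median was 0.83 for types I, III, V and VI and 0.09 for all collagen pairs. These r are descriptions, since all genes were read from the same arrays.

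**Figure D2:**
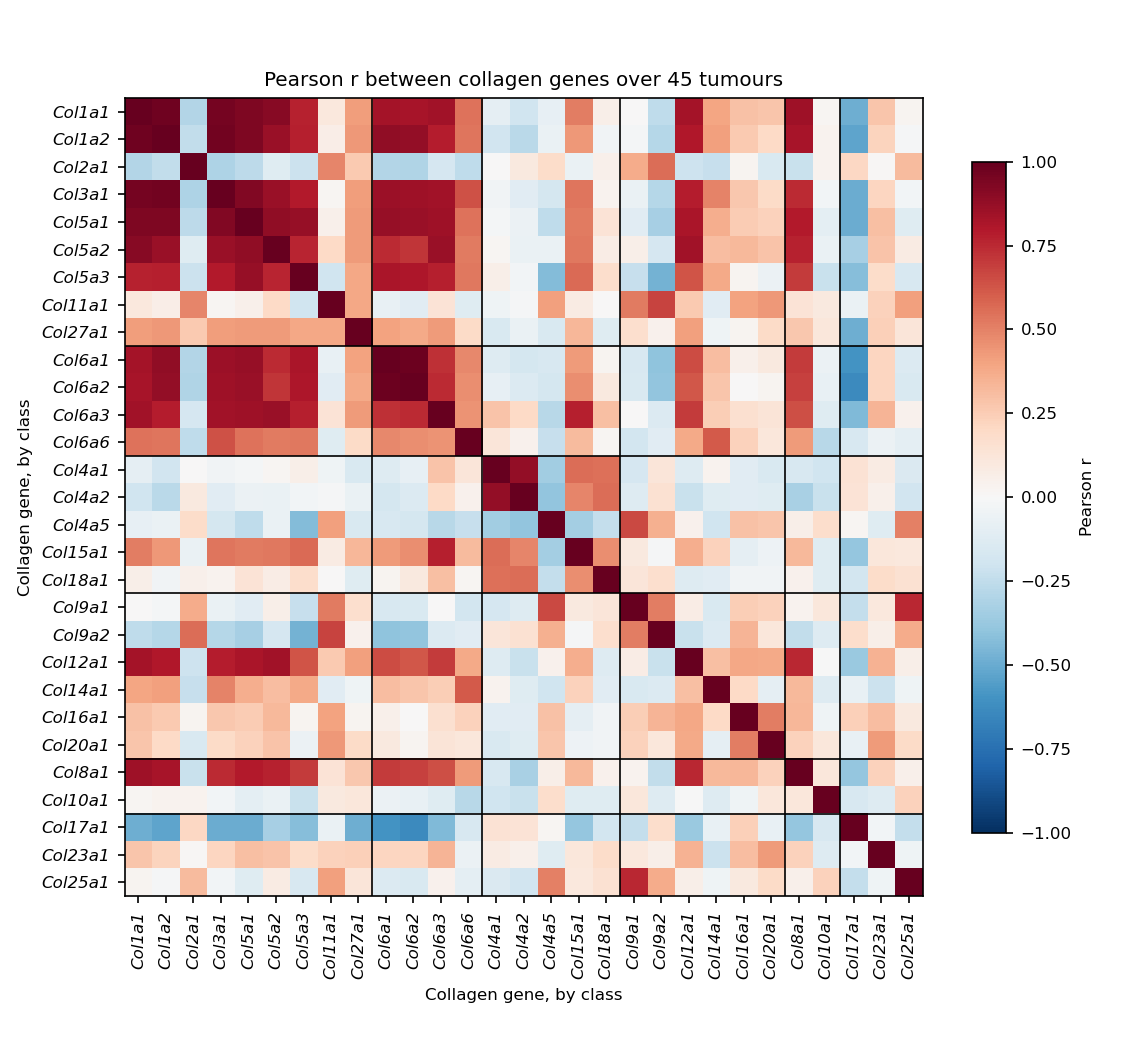
Pearson r over 45 tumours between each pair of the 29 collagen genes that passed the filter, ordered by class along both axes, with colour from -1 to 1. The dark red blocks hold types I, III, V and VI (median r 0.83). Col12a1 and Col8a1 also have high r with Col1a1 (0.83 and 0.84). A blue strip is Col17a1, whose lowest r was -0.63. Col2a1 and Col9a2 also have r below 0 with each gene of types I, III, V and VI shown.

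Single relations, 20 chosen with earlier results of these data known, were examined by permutation of tumours (two-sided, 100000 resamples, smallest p 1e-05), with Benjamini-Hochberg adjustment over the 17 that could be run. By Pearson r 13 passed at 0.05, and by Spearman rho 12 did. Col1a1 followed Col1a2 with r = 0.97 and rho = 0.96, and Col3a1 with r = 0.96 and rho = 0.96 (permutation p = 1e-05 each, adjusted p = 1.7e-05). Its r was 0.91 with Col5a2 (rho 0.89) and 0.84 with Col6a3 (rho 0.80), again at the smallest permutation p. Without the 2 tumours farthest from the median of Col1a1, these 4 values of r were 0.97, 0.95, 0.88 and 0.78. Within single host groups the 4 relations had r of 0.80 to 0.99. Col6a1 and Col6a2, both on chromosome 10, were related with r = 0.98 and rho = 0.98, and with r of 0.98 to 0.99 within the groups.

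Upstream sequences are shown for 4 genes of this co-varying set, so that their start regions can be set side by side, and for Col17a1, whose r with these 4 genes was between -0.63 and -0.50. They are the 250 bases before the annotated start of each gene, on the gene's strand, from RefSeq on GRCm38.p6. Col1a2 is read from chr6:4505368-4505617 (+), Col3a1 from chr1:45311288-45311537 (+), Col6a1 from chr10:76726045-76726294 (-), Col6a2 from chr10:76623631-76623880 (-) and Col17a1 from chr19:47692043-47692292 (-). Capitals mark 4 motifs, searched on both strands: the CCAAT box (CCAAT), the TATA box (TATAAA), the GC box (GGGCGG) and an AP-1 site (TGANTCA).
Col1a2: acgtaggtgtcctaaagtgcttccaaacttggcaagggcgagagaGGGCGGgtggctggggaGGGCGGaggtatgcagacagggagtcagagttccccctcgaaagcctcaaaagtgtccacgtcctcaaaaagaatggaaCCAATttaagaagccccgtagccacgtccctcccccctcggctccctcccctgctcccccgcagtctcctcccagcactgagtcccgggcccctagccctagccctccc
Col3a1: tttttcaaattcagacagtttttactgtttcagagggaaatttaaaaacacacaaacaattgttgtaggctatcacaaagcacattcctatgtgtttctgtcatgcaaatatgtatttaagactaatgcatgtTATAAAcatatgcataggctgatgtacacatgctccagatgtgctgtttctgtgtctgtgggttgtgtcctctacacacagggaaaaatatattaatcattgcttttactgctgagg
Col6a1: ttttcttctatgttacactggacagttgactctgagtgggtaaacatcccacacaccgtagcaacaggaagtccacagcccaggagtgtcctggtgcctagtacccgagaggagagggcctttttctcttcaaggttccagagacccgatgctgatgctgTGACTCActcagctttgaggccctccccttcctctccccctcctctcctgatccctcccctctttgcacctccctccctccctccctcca
Col6a2: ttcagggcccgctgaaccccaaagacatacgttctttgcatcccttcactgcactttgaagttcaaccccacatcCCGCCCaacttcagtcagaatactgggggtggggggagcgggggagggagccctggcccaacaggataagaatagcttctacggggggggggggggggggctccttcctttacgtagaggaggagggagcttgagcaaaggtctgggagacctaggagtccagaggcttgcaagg
Col17a1: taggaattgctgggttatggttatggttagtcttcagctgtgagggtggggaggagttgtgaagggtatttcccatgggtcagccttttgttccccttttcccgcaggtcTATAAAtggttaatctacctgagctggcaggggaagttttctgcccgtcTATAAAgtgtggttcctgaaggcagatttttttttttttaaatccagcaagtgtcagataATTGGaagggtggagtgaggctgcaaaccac

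Col1a2 holds 1 CCAAT box and 2 GC boxes, Col3a1 a TATA box, Col6a1 an AP-1 site, Col6a2 a GC box, and Col17a1 a CCAAT box and 2 TATA boxes. No motif is shared by all 4 genes of types I, III and VI that are shown. Of the 42 members, 34 have an entry in the promoter table, and among these the CCAAT box was found in 11 (32.4%), the TATA box in 5 (14.7%), the GC box in 20 (58.8%) and the AP-1 site in 1 (2.94%). Over all 27025 promoters the shares were 34.5%, 13.0%, 33.0% and 6.85%. A match is a description of letters in this window and was not tested as a binding site.

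Over all genes tested, those nearest to Col1a1 across the 45 tumours were, after Col1a2, Col3a1 and Col5a1 (r = 0.94), Thbs2 (r = 0.92), a matricellular thrombospondin, and Srpx2 (r = 0.91), a secreted sushi-repeat protein. The fibroblast score, from 12 of the 15 listed marker genes, was related to Col1a1 with r = 0.81 and rho = 0.79 (permutation p = 1e-05, adjusted p = 1.7e-05; r = 0.78 without the 2 farthest tumours). Within the host groups that r was 0.81 to 0.87. The score of 26 genes for collagen processing (hydroxylases, chaperones, proteinases and cross-linking enzymes) had r = 0.76 and rho = 0.73 with Col1a1 (permutation p = 1e-05; r = 0.70 without the 2 farthest). With the epithelium score, Col1a1 had r = -0.20 (permutation p = 0.195) and rho = -0.29 (p = 0.0519, adjusted p = 0.065), which did not pass. Without 10 cGy replicate 1 and sham replicate 16, r was -0.25 (permutation p = 0.106, adjusted p = 0.139) and rho was -0.34 (permutation p = 0.0273, adjusted p = 0.0357), so that rho passed and r did not. For Col11a1 and the fibroblast score r was -0.11 (permutation p = 0.457) and rho -0.10 (p = 0.499), and within groups that r ran from -0.56 to 0.69.

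**Figure D3:**
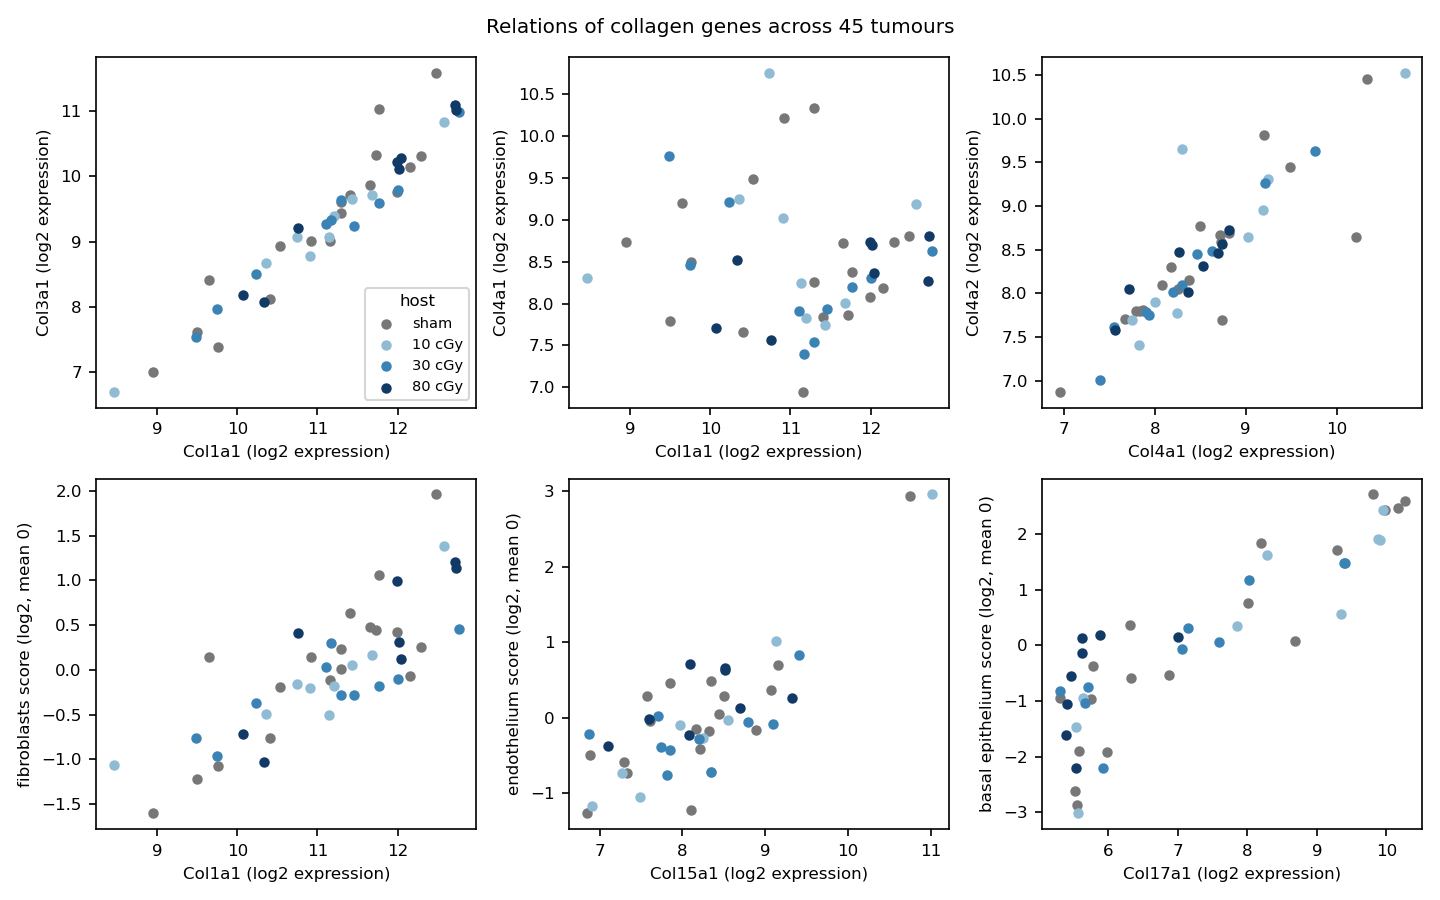
Each point is 1 of 45 tumours, coloured by dose to the host, and axes are log2 expression or, for marker lists, the mean log2 deviation from the 45-tumour mean. Col1a1 and Col3a1 lie along a line (r 0.96), Col1a1 and Col4a1 do not (r -0.09), and the 2 tumours at endothelium scores of 2.94 and 2.96 sit apart from the rest in the panel of Col15a1.

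The 5 basement membrane genes that passed the filter had a median r of 0.48 between pairs, with 4 of 10 pairs below 0. Col4a1 and Col4a2 encode the chains of the common type IV network. The starts of their promoter entries lie 21 bases apart on opposite strands of chromosome 8 (RefSeq, GRCm38.p6). For Col4a2 that start is the annotated end of the gene, and for Col4a1 it is not. Col4a1 had a lowest, median and highest value of 6.95, 8.44 and 10.33 in sham tumours, 7.74, 8.30 and 10.75 at 10 cGy, 7.39, 8.25 and 9.76 at 30 cGy, and 7.56, 8.44 and 8.81 at 80 cGy. Col4a2 ran from 6.88 through a median of 8.23 to 10.45 in sham tumours, from 7.41 through 8.64 to 10.52 at 10 cGy, from 7.00 through 8.05 to 9.63 at 30 cGy, and from 7.58 through 8.38 to 8.72 at 80 cGy. Both were highest in 10 cGy replicate 1 and next in sham replicate 16, and lowest in sham replicate 6, and the groups overlapped. They varied together with r = 0.88 and rho = 0.87 (permutation p = 1e-05; r = 0.82 without those 2 tumours, which are also the 2 farthest). With types I, III, V and VI the median r of these genes was -0.07 over 20 pairs, and Col1a1 against Col4a1 had r = -0.09 (permutation p = 0.557) and rho = -0.04 (p = 0.771). After Col4a2, the genes nearest to Col4a1 were Sema6d (r = 0.81), a transmembrane semaphorin, Rgs4 (r = 0.81), a regulator of G protein signalling, Gucy1b1 (r = 0.80), a subunit of soluble guanylate cyclase, and 4930555G01Rik (r = 0.77).

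Col4a1 was related to the endothelium score with r = 0.53 (permutation p = 0.0003, adjusted p = 0.000464), while rho was 0.29 (p = 0.0535, adjusted p = 0.065). That relation rests on 10 cGy replicate 1 and sham replicate 16: without them r was 0.19 (permutation p = 0.232, adjusted p = 0.303). Col15a1 and Col18a1 encode basement membrane collagens that carry sugar chains, and Col18a1 is the source of endostatin. Col15a1 lay between 6.84 and 11.01 over all tumours (median 8.20), and 10 cGy replicate 1 (11.01) and sham replicate 16 (10.75) stood above every other tumour, of which the highest was 9.41. It was related to the endothelium score with r = 0.80 and rho = 0.66 (permutation p = 1e-05 each), and with r = 0.63 without those tumours (permutation p = 2e-05). With the adipocyte score (9 of 11 genes) Col15a1 had r = 0.45 (permutation p = 0.00246) and rho = 0.53 (p = 0.0003), and r = 0.49 without the 2 farthest tumours. Within groups this r was 0.52 to 0.62 except at 80 cGy, where it was -0.42 over 8 tumours. Col18a1 lay between 7.48 and 10.52 (median 8.53), with 30 cGy replicate 10 highest. With the epithelium score it had r = -0.19 (permutation p = 0.205) and rho = -0.05 (p = 0.728). Without 10 cGy replicate 1 and sham replicate 16 that r was 0.01 (permutation p = 0.926) and rho 0.08 (p = 0.629). Col15a1 had r = 0.51 with Col1a1. Col4a5, which belongs to a rarer type IV network, had r = -0.35 with Col4a1 and -0.39 with Col4a2. It lay between 4.92 and 7.51 (median 6.26) and was lowest in sham replicate 16, where Col4a1 was near its highest.

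Col17a1 encodes the transmembrane collagen of hemidesmosomes, the structures that anchor basal epithelial cells to the basement membrane. Its lowest, median and highest values were 5.30, 6.60 and 10.26 in sham tumours, 5.53, 8.27 and 9.94 at 10 cGy, 5.30, 7.10 and 9.40 at 30 cGy, and 5.39, 5.57 and 7.00 at 80 cGy. In the first 3 groups it was low in some tumours and high in others. At 80 cGy it lay above the table's median in 2 of 8 tumours, against 14 of 18 in sham tumours, all 8 within the sham range. Its r with the 28 other collagens had a median of -0.24, below 0 for 22 of them and lowest for Col6a2 (-0.63). The nearest genes over all genes tested were Krt5 (r = 0.94), a keratin of basal cells, Trim29 (r = 0.93), Trp63 (r = 0.91), the p63 transcription factor of basal epithelium, Irx4 (r = 0.90) and Sostdc1 (r = 0.89), a secreted inhibitor of BMP and Wnt signals. With the basal epithelium score (10 of 11 genes) Col17a1 had r = 0.88 and rho = 0.87 (permutation p = 1e-05 each; r = 0.86 without the 2 farthest tumours), and r of 0.52 to 0.91 within groups. The other transmembrane members were Col23a1, between 5.43 and 6.77 (median 6.11), and Col25a1, whose product is found with amyloid plaques in brain. Col25a1 ran from 4.61 through a median of 4.93 to 6.37 in sham tumours, from 4.64 through 5.12 to 6.56 at 10 cGy, from 4.66 through 5.10 to 6.46 at 30 cGy, and from 4.84 through 5.56 to 7.44 at 80 cGy.

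Among FACIT genes, Col12a1, which binds type I fibrils, had a lowest, median and highest value of 8.78, 10.15 and 11.97 in sham tumours, 8.32, 10.51 and 12.18 at 10 cGy, 8.70, 10.53 and 11.45 at 30 cGy, and 9.03, 10.55 and 12.71 at 80 cGy. It followed the fibrillar set, with Col5a2 as its nearest collagen (r = 0.84). Col14a1, also a fibril-associated chain, lay between 6.86 and 11.10 (median 8.55), with sham replicate 9 highest. Col9a1, a chain of type IX collagen on the fibrils of cartilage, ran from 5.10 through a median of 5.82 to 7.98 in sham tumours, from 5.45 through 6.21 to 8.19 at 10 cGy, from 5.71 through 6.49 to 9.13 at 30 cGy, and from 5.22 through 6.56 to 8.61 at 80 cGy. Col9a2, another type IX chain, lay between 5.03 and 7.70 (median 5.75), Col16a1 between 5.56 and 7.26 (median 6.76) and Col20a1 between 6.01 and 7.31 (median 6.49). For Col2a1 and the cartilage score, r was 0.41 (permutation p = 0.00514) and rho 0.36 (p = 0.0157), with r = 0.44 without the 2 farthest tumours. That score rests on 5 of 11 listed genes, since the others, among them Acan, which encodes the main proteoglycan of cartilage, did not pass the filter. Within 80 cGy the r was -0.11.

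The short-chain members form networks rather than fibrils. Col8a1, made in vessel walls and stroma, lay between 7.61 and 10.84 (median 9.81) and had Col1a1 as its nearest collagen (r = 0.84). Col10a1, known from hypertrophic cartilage, had a lowest, median and highest value of 4.20, 5.74 and 8.63 in sham tumours, 4.87, 5.63 and 7.06 at 10 cGy, 4.41, 6.17 and 7.76 at 30 cGy, and 4.59, 5.86 and 8.67 at 80 cGy. Single tumours stood high in it (80 cGy replicates 5 and 8 and sham replicate 5), and its r with the other collagens had a median of -0.07.

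Collagens varied more than most genes. The median SD over the 45 tumours was 0.81 log2 for the 29 collagens and 0.43 for the 12123 genes. Of the 29, 25 lay above the genes' median SD and 8 above their 90th percentile. Without the filter the medians were 0.72 for 42 collagens and 0.36 for 18820 genes. Col17a1 had an SD of 1.75, followed by Col3a1 (1.13), Col10a1 (1.12), Col9a1 (1.07), Col1a2 (1.06), Col1a1 (1.04), Col6a2 (1.04), Col12a1 (1.03), Col6a3 (0.99) and Col6a1 (0.99). The share of a gene's variance that lay between the 4 host groups had a median of 4.22% for the collagens and 5.54% for all genes. It was 17.4% for Col17a1, 15.8% for Col9a1 and 4.34% for Col1a1. The rest of the variance lay between tumours of the same host group.

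**Figure D4:**
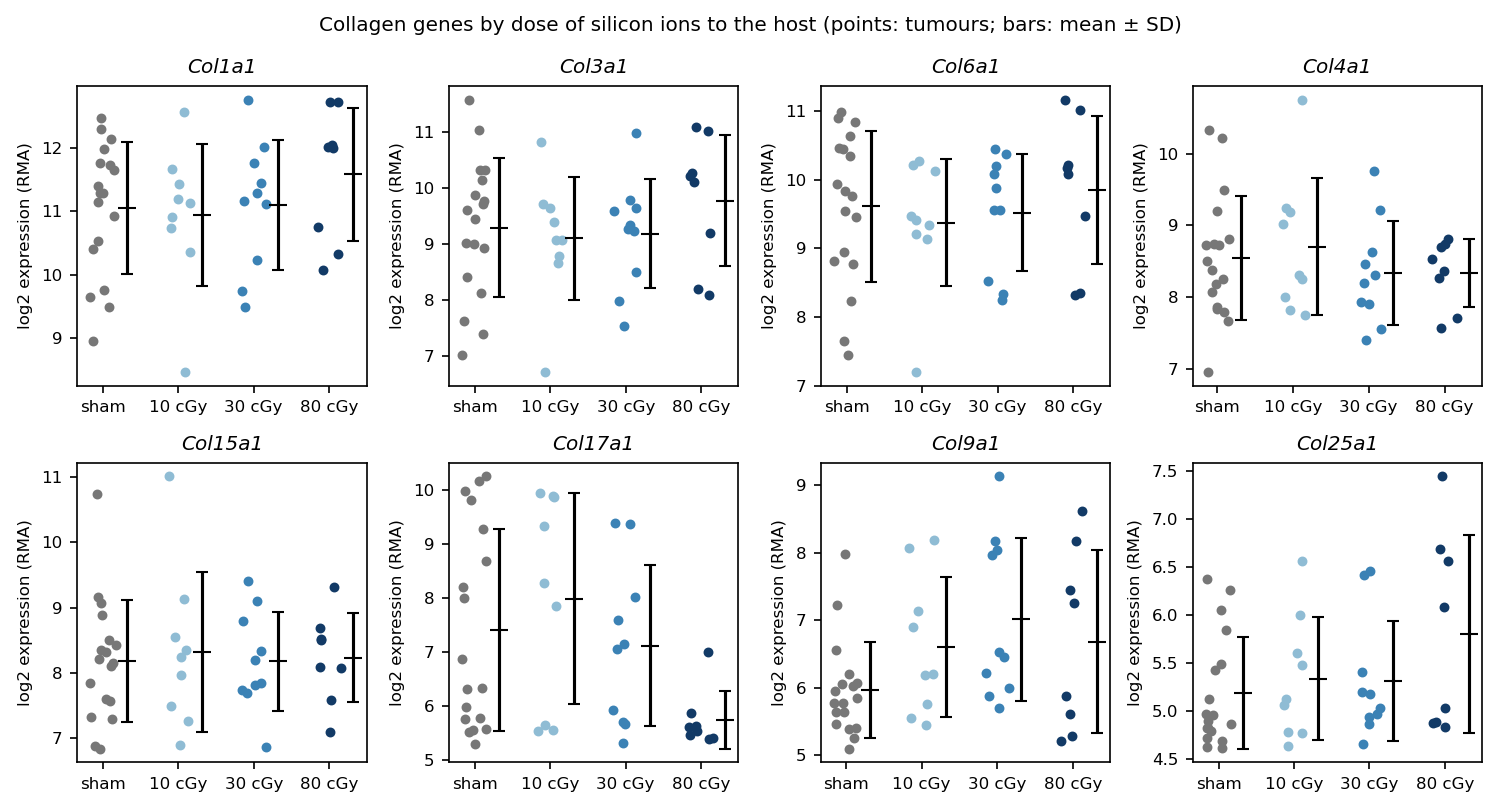
Log2 expression of 8 collagen genes (vertical axes, a scale for each gene) in tumours of sham hosts and of hosts given 10, 30 or 80 cGy of silicon ions; points are tumours and bars the mean ± SD. All groups overlap in every panel, and Col17a1 at 80 cGy lies between 5.39 and 7.00.

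The design asks whether exposure of the host goes with a different tumour. Tumours of Si hosts were set against those of sham hosts as the unweighted mean of the 3 doses minus sham, in a limma fit over all 12123 genes. Limma called 0 of the 29 collagens at an adjusted p under 0.05, and 0.0% of all genes. At an unadjusted p under 0.05 it gave 1 of 29, against 5.82% of all genes. That gene was Col9a1, with values of 5.22, 6.46 and 9.13 (lowest, median, highest) in 27 Si tumours, against 5.10, 5.82 and 7.98 in 18 sham tumours. The Si tumours reached higher, but the groups overlapped over most of their range. No gene, collagen or other, had Si or single-dose groups free of overlap with sham (0.0% of all genes). Its limma difference was 0.80 ± 0.30 log2 (SE, 95% interval 0.19 to 1.41), with an unadjusted p of 0.0113 and an adjusted p of 0.796. Single-tumour omissions gave 0.71 to 0.92. The difference was above 0 for 19 of 29 collagens, against 53.2% of all genes, with a median of 0.06 against 0.011. For Col1a1 it was 0.16 ± 0.31 (95% interval -0.47 to 0.79) and for Col4a1 -0.08 ± 0.24 (-0.57 to 0.40). The width of these intervals depends on the number of tumours and on the spread between them.

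At 10 cGy against sham, limma called 0 of 29 collagens at an adjusted p under 0.05 (0.0% of all genes) and 0 at an unadjusted p under 0.05 (3.65% of all genes). The difference was above 0 for 14 of 29 (51.8% of all genes). At 30 cGy there were again 0 calls (0.0% of all genes) and 1 collagen at an unadjusted p under 0.05 (4.45% of all genes). It was Col9a1, with a limma difference of 1.05 ± 0.39 log2 (95% interval 0.25 to 1.84) and an adjusted p of 0.990. Without 30 cGy replicate 8, the highest of all tumours for this gene, the difference was 0.81. Of the 5 cartilage genes that passed the filter, 4 had a difference above 0 at 30 cGy (median 0.68) and 4 for all Si hosts (median 0.42). The cartilage score had a lowest, median and highest value of -1.10, 0.16 and 1.86 at 30 cGy, against -1.49, -0.35 and 2.00 in sham tumours. The lowest were 30 cGy replicate 4 and sham replicate 16, with epithelium scores of -2.90 and -3.55. Sham replicate 7 was also low (-1.15), with an epithelium score of 0.37. Sox9, 1 of the 5 genes in the score, was above the table's median in all 45 tumours. Matn1, Matn3, Hapln1 and Epyc, matrix genes of cartilage and related tissue, were above the table's median in 0 of 45 tumours, and Acan in 4. Of 8 listed genes of nerve and Schwann cells 3 passed the filter, and all 3 had a difference above 0 at 30 cGy (median 0.68). Their score had -0.80, 0.58 and 1.96 at 30 cGy, against -1.64, -0.15 and 0.96 in sham tumours. Limma called 0 genes of either list in these contrasts, with 1 at an unadjusted p under 0.05 (Chad, a small cartilage matrix protein, for all Si hosts at 0.94 ± 0.37, unadjusted p = 0.0147), and their part in the Col9a1 value was not tested. At 30 cGy the difference was above 0 for 13 of 29 collagens (49.2% of all genes).

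At 80 cGy against sham, limma called 0 of 29 collagens (0.0% of all genes), and 2 had an unadjusted p under 0.05 (6.97% of all genes). That count was 1 without any 1 of 80 cGy replicates 2, 4, 5 and 6 or sham replicates 3, 4, 5, 10, 12, 13 and 14, and 4 without sham replicate 2. Col17a1 averaged 5.74 ± 0.53 in 8 tumours at 80 cGy and 7.41 ± 1.87 in 18 sham tumours (SD), a limma difference of -1.67 ± 0.68 log2 (95% interval -3.04 to -0.30) with an adjusted p of 0.673. Among 10 basal epithelium genes, 8 had a difference below 0 at 80 cGy with a median of -0.88 (0.033 over all genes). Krt5 differed by -2.47 ± 1.15 (SE, unadjusted p = 0.0376 and adjusted p = 0.692 in limma). The basal score had a lowest, median and highest value of -2.20, -0.35 and 0.18 at 80 cGy, against -2.88, -0.16 and 2.71 in sham tumours, and its part in the Col17a1 value was not tested. Col25a1 had 4.84, 5.56 and 7.44 at 80 cGy, against 4.61, 4.93 and 6.37 in sham tumours, and a limma difference of 0.61 ± 0.29 (0.03 to 1.20) with an adjusted p of 0.692. It was 0.38 without 80 cGy replicate 5, its highest tumour.

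Of the 9 fibrillar genes, 8 had a difference above 0 at 80 cGy, with a median of 0.30 log2, and 0 of 9 had an unadjusted p under 0.05. Over all 29 collagens 21 were above 0, against 56.6% of all genes, with a median of 0.22 against 0.033. Since types I, III and V vary together, these counts are not independent of each other. Over all 9 fibrillar genes the median r between pairs was 0.42, with 7 of 36 pairs below 0. Col1a1 averaged 11.58 ± 1.05 at 80 cGy and 11.05 ± 1.04 in sham tumours (SD), a limma difference of 0.53 ± 0.44 (95% interval -0.35 to 1.41, adjusted p = 0.861). Col3a1 averaged 9.78 ± 1.17 at 80 cGy and 9.29 ± 1.24 in sham tumours, a difference of 0.48 ± 0.47 (-0.48 to 1.44, adjusted p = 0.894). Both differences are smaller than the SD within a group. The fibroblast score had a lowest, median and highest value of -1.03, 0.37 and 1.21 at 80 cGy, against -1.60, 0.14 and 1.96 in sham tumours, and the skeletal muscle score (8 of 11 genes) had -1.27, 0.45 and 3.88 at 80 cGy, against -1.43, -0.92 and 5.80 in sham tumours. Their part in these differences was not tested. Without the 7 tumours with a skeletal muscle score above 2 (3 at 80 cGy, 1 at 30 cGy and 3 sham), Col1a1 at 80 cGy differed from sham by 0.68 ± 0.51, Col17a1 by -1.64 ± 0.85 (unadjusted p = 0.0612) and Col25a1 by 0.22 ± 0.33 (unadjusted p = 0.517) in limma, and Col27a1 by 0.55 ± 0.27 (unadjusted p = 0.0439, adjusted p = 0.803).

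**Figure D5:**
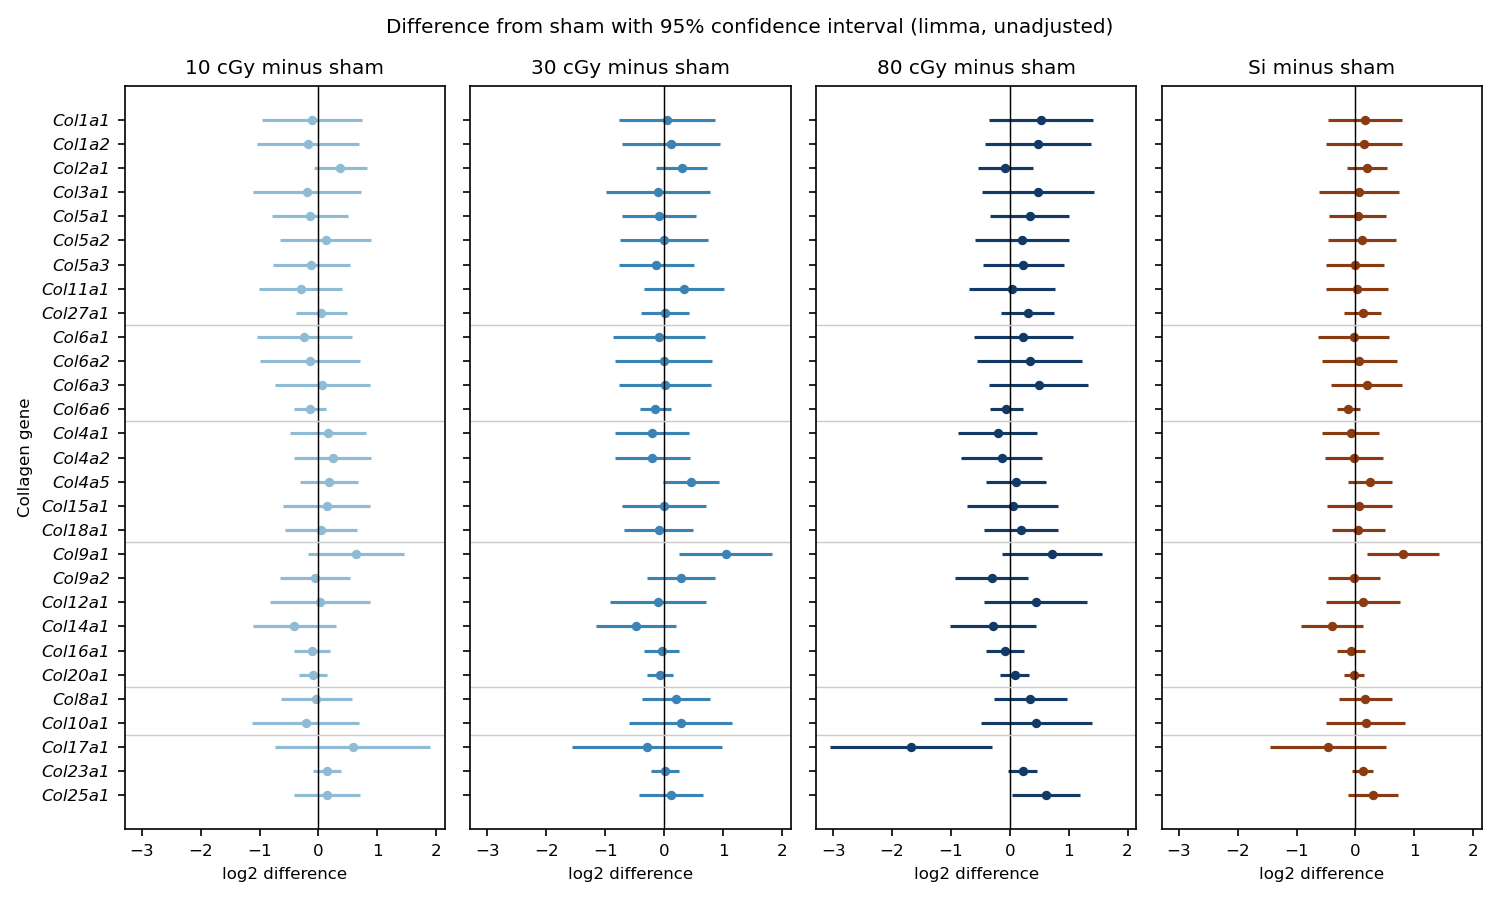
Limma log2 difference of each dose, and of all Si hosts, minus sham for the 29 collagen genes, with unadjusted 95% confidence intervals; a vertical line marks 0. Intervals cross 0 except for Col9a1 (30 cGy, and all Si hosts), and Col17a1 and Col25a1 (80 cGy), and no difference passed adjustment over 12123 genes.

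Across the 4 groups, an F test gave 0 collagens after adjustment (0.0% of all genes) and 1 of 29 at an unadjusted p under 0.05 (4.13% of all genes), Col17a1 (unadjusted p = 0.0384, adjusted p = 0.985 in limma). That count was 0 without any 1 of 80 cGy replicates 2, 4, 5 and 6 or 10 cGy replicates 3, 7 and 8. It was 2 without any 1 of 80 cGy replicate 7, 30 cGy replicates 2, 4, 9 and 10, 10 cGy replicate 1 and sham replicate 1, and 3 without sham replicate 2. Among the 3 doses alone it gave 0 (0.0%) and 1 (3.98%), again Col17a1 (unadjusted p = 0.0210, adjusted p = 0.999). A slope on dose, with sham at 0, gave 0 (0.0%) and 2 of 29 (7.43% of all genes). That count was 1 without any 1 of 80 cGy replicates 2, 4, 5 and 6 or sham replicates 3, 4, 5, 10, 12, 13, 14 and 16, and at most 3 without any other. The 2 genes were Col17a1, with -0.23 ± 0.08 log2 per 10 cGy (adjusted p = 0.550), and Col25a1, with 0.07 ± 0.03 per 10 cGy (adjusted p = 0.658). The slope shares its sham and 80 cGy tumours with the contrast at 80 cGy, so both rest largely on the same arrays.

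Genes that act on collagen were examined in the same fit. Of 26 processing genes tested, 9 had a difference above 0 for Si minus sham and 17 below, against 53.2% of all genes above 0. Their median was -0.08 log2, against 0.011 over all genes. The extremes were Plod2, a lysyl hydroxylase, at 0.30 ± 0.25 and Creb3l1, a transcription factor of the secretory pathway, at 0.25 ± 0.33, against Pcolce2, an enhancer of procollagen cleavage, at -0.67 ± 0.42 and P4ha1, a prolyl hydroxylase chain, at -0.33 ± 0.19. None of the 26 had an unadjusted p under 0.05 there in limma, against 5.82% of all genes. The 8 collagen receptors lay between -0.16 (Itga11, an integrin chain) and 0.06 (Itga2, another), 4 above 0 and 4 below. Of 16 collagen-binding matrix genes 9 were above 0. They ran from Tnxb, a tenascin, at -0.69 ± 0.38 to Bgn, a small proteoglycan, at 0.24 ± 0.16. By single dose, 4, 11 and 18 of the 26 processing genes were above 0 at 10, 30 and 80 cGy. Of the 16 collagen-binding genes these counts were 4, 5 and 12, and of the 8 receptors 3, 3 and 6. Over all genes the shares above 0 were 51.8%, 49.2% and 56.6%. Limma called 0 genes of these 3 lists at an adjusted p under 0.05 in the contrasts of Si and of each dose with sham, and the lowest unadjusted p among them belonged to Pcolce2 at 30 cGy (-1.18 ± 0.55, unadjusted p = 0.0373).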

How the data were processed

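The 45 arrays were single-colour Affymetrix arrays. Per the submitters' processing notes the deposited log2 values came from RMA with the oligo package (versions not given in the sources used here). Groups were read from the sample titles. The platform annotation gives 1 symbol to 21218 of 35556 probe sets, several to 1881 and none to 12457; only the first were used, as 18820 genes. Genes above 5.67, the table's median, in at least 8 tumours were tested (12123). Limma 3.58.1 in R 4.3.3 fitted the 4 group means together (lmFit and eBayes, two-sided, Benjamini-Hochberg over all genes tested, threshold 0.05); the slope was a second fit. Errors are SE for limma differences and SD for means. Scripts were tested on simulated data. Relations across tumours were computed in Python 3.11.15 (scipy 1.17.1). Full values are given for Col1a1, Col1a2, Col3a1, Col5a1, Col5a2, Col4a1 and Col4a2, for the 10 collagens with the largest SD and for those with an unadjusted p under 0.05 against sham; other genes are the extremes of a list for Si minus sham or the 5 nearest to Col1a1, Col4a1 and Col17a1. Collagen genes, lists and relations were chosen with earlier results of these data known. The number of arrays limits precision. Promoters are RefSeq's, by symbol.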

Additional observations from a re-analysis of the deposited data

Results flagged for a closer look

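Of 87 tests, 1 for each collagen that passed the filter in each of the 3 Si groups (sham tumours number more than 10 and were not tested), 7 found a tumour far from the rest of its group by Dixon's criterion. Chance gives about 1 in 20 where values are normal and tests are independent. These tests are not independent, since some flags are the same tumour in genes that vary together (Col6a1 and Col6a2, r = 0.98). The share over all genes was not computed, so the count does not show an excess in collagens. In the 10 cGy group, replicate 3 was lowest for Col6a1 (7.20, next 9.14), Col6a2 (7.15, next 8.83) and Col8a1 (7.61, next 9.10), and replicate 1 was lowest for Col16a1 (5.56, next 6.46) and highest for Col4a1 (10.75, next 9.25). In the 30 cGy group, replicate 10 was highest for Col18a1 (10.52, next 8.73). At 80 cGy, replicate 7 was highest for Col17a1 (7.00, next 5.88).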

How the results depend on the processing

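In limma, 0 collagens passed an adjusted p of 0.05 in any of the 7 tests under any alternative run (56 to 59 settings a test, among them other filters, the mean of all probe sets, array weights, robust regression, and omission of each tumour). With any 1 tumour left out the count was 0. The lowest adjusted p of a collagen over the settings was 0.0921 for the slope, 0.0961 for 80 cGy, 0.17 for Si, 0.376 for 30 cGy and 0.506 for 10 cGy. Over all genes, array weights gave 30 calls at 80 cGy and 25 for the slope, and robust regression up to 22, while leaving out 1 tumour gave at most 1. At an unadjusted p under 0.05 the collagens at 80 cGy numbered 0 with robust regression and 4 with array weights, and 1 to 4 without 1 tumour. Array weights gave 4 collagens across the 4 groups, 5 for the slope, 3 among the doses and 3 for Si at that p. Leaving out 1 tumour gave 2 for Si without sham replicate 2, and 1 at 10 cGy without sham replicate 2 or 10 cGy replicate 5. At 30 cGy it gave 2 without any 1 of 30 cGy replicates 1, 2, 4 and 10, 10 cGy replicate 1 and sham replicates 1, 2 and 11. Replicate numbers do not pair the tumours (median r of deviations -0.07 over 52 pairs); with them as a replicate block limma called 0 collagens, and 6 genes for Si. Leaving out 10 cGy replicate 1 and sham replicate 16, or 7 tumours high in skeletal muscle genes, was chosen after seeing the data. Without the first, as without the 2 farthest tumours, the r of Col4a1 and the endothelium score was 0.187 (adjusted p = 0.282 and 0.303). Within 80 cGy, r was -0.421 for Col15a1 with the adipocyte score and -0.114 for Col2a1 with the cartilage score; the cause was not tested. By r, the other relations that passed kept their direction and side of the threshold. Under the mean of all probe sets Col6a6 no longer passed the filter.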

Other observations

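Some further pairs of collagens stood out only after the correlations had been seen, and no test was run on them. Over the 45 tumours Col9a1 had its highest Pearson r among collagens with Col25a1 (0.75), and Col4a5 had its highest with Col9a1 (0.66). Col9a2 had its highest with Col11a1 (0.68), and Col2a1 with Col9a2 (0.56). Col14a1 was nearest to Col6a6 (0.61), and Col15a1 to Col6a3 (0.78). All these r come from the same arrays.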
